A study of Mus musculus with 5 samples.

Results

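The muscleblind proteins Mbnl1, Mbnl2 and Mbnl3 and the CELF proteins Celf1 and Celf2 are RNA-binding proteins whose own mRNAs were measured here on 5 mouse arrays. Every probe set annotated to 1 of these 5 gene symbols and to no other gene was taken, which gave 23 probe sets of 45101 on the array. Mbnl1 had 3 of them, Mbnl2 5, Mbnl3 3, Celf1 5 and Celf2 7. The genes were chosen on signals that included the difference between the induced and control arrays, so values of that difference for these genes are described below with no p, and counts of calls only beside those of all probe sets. The test given for them compares the uninduced immunoprecipitates with total RNA, which does not use the induced arrays' levels.

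Muscleblind proteins carry CCCH zinc fingers and bind RNA at short GC motifs flanked by pyrimidines, including the CUG repeats that expand in myotonic dystrophy. In that disease the expanded repeat RNA holds muscleblind proteins in nuclear foci, and many transcripts keep their fetal splicing pattern. CELF proteins carry RNA recognition motifs and bind GU-rich RNA. They often act on the same exons in the opposite direction, and Celf1 also promotes deadenylation and decay of mRNAs with GU-rich elements. Both families therefore act on splicing in the nucleus and on mRNA localization or decay in the cytoplasm.

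The cells were NIH/3T3, a mouse embryonic fibroblast line, that had been infected with 2 retroviral vectors and selected with blasticidin in the presence of mifepristone. The vectors carried the GeneSwitch system, in which mifepristone turns on AUF1 p42 with a myc tag at its amino terminus. AUF1, encoded by Hnrnpd, binds AU-rich RNA and is known for its part in mRNA decay. For 2 arrays, cells received 1 nM mifepristone for 24 h and RNA-protein complexes were immunoprecipitated on anti-c-myc agarose beads (RNP-IP). For 2 further arrays, cells of the same kind received no mifepristone before the same RNP-IP. The last array held total RNA without immunoprecipitation, and the sources used here do not say whether its cells had been given mifepristone. Signals are log2 values after robust multiarray average (RMA) normalization. An enrichment in RNP-IP RNA and a change in the amount of an mRNA in the cells cannot be told apart in the induced arrays, because no total RNA array is labelled as coming from induced cells.

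The mRNA of the targeted gene was lower in the arrays labelled induced. These arrays hold RNA recovered on beads and do not measure AUF1 protein. Hnrnpd probe set 1425142_a_at had log2 signals of 6.72 in RNP-IP 1 and 7.39 in RNP-IP 2 of the pair labelled induced. The pair labelled uninduced had 11.35 and 11.85, and total RNA 10.60. The other 2 Hnrnpd probe sets were also lower in both arrays labelled induced, with differences of -4.32 and -1.97 on the log2 scale from the 3 controls. The files do not say whether the vector's AUF1 transcript is seen by these probe sets, and the direction of each difference below rests on the labels as deposited. The fibroblast markers were measured for 8 of 8 genes, between 7.43 and 13.42, while 6 of 6 skeletal muscle markers and 3 of 3 endothelial markers stayed under log2 5 on each array. Of the neural markers 3 of 5 stayed under 5, and Map2 was at 4.01 and 4.80 in the arrays labelled induced against 6.60 to 6.81 in the others. Map2 differed by -2.31 and was called lower by the 3-fold rule given below. The other Map2 probe sets stayed under log2 5 on every array and were not called. Summed on the linear scale, the 5 neural markers came to 92.8 to 103 in the arrays labelled induced and 173 to 183 in the controls, and their part in the results below was not tested. Both measured blood markers, of 3 listed, were higher in the arrays labelled induced than in every control, as were 11% of all probe sets. Ptprc was at 3.35 and 3.46 against 3.03 to 3.14, under log2 5 on each array. Cd3e was at 5.16 and 5.08 against 4.68 to 4.73. Their linear sums were 44.9 to 46.0 against 33.8 to 35.3, and neither gene was called. Of the epithelial markers 3 of 4 stayed under 5, and Epcam lay between 6.66 and 6.99 on all arrays. The 8 fibroblast markers summed to 29384 to 32857 in the arrays labelled induced and 35476 to 41915 in the controls. Of the 8, 4 were below every control and 1, Col3a1 (1.02), was above, against 10.6% and 11% of all probe sets. Fn1 differed by 0.23 with overlapping groups, and Pdgfrb (-1.59) was the 1 fibroblast marker called lower. The other Pdgfrb probe set, 1417148_at, differed by -0.33 and was not called.

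The largest difference among the muscleblind and CELF probe sets belonged to Mbnl3, the X-linked muscleblind gene, which is best known from immature muscle and placenta and as an inhibitor of muscle differentiation. Mbnl3 probe set 1422836_at had log2 signals of 10.22 and 11.06 in the pair labelled induced. The pair labelled uninduced was at 6.30 and 5.38, and total RNA at 6.12. Both arrays labelled induced stood far above all 3 controls, and total RNA lay between the 2 uninduced RNP-IPs. The mean signal was higher by 4.70 (SE 0.42) on the log2 scale against the 3 controls, or 26.1-fold, and by 4.80 against the uninduced RNP-IPs alone. The replicates of 1422836_at differed by an SD of 0.59 (n = 2) in the arrays labelled induced and 0.65 (n = 2) in those labelled uninduced. Its difference ranked 4 from the highest and 45098 from the lowest among all 45101 probe sets, in the direction that the deposited labels give.

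The other bright probe set of Mbnl3 did not show this. Probe set 1434678_at had 7.53 and 8.04 in the pair labelled induced, 7.32 and 6.64 in the pair labelled uninduced, and 7.88 in total RNA. Its total RNA value lay between the values of the arrays labelled induced, so the groups overlapped, and the mean difference was 0.51. Within each array, signal of 1422836_at minus that of 1434678_at was 2.69 and 3.01 in the arrays labelled induced and -1.02, -1.26 and -1.75 in the 2 uninduced RNP-IPs and total RNA. The 2 probe sets therefore changed unequally, by 4.20 on the log2 scale. The third Mbnl3 probe set, 1442549_at, stayed between 3.45 and 4.14 on the 5 arrays, close to the background of the array. Which Mbnl3 transcripts each probe set detects is not given in the files used here.

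**Figure D1:**
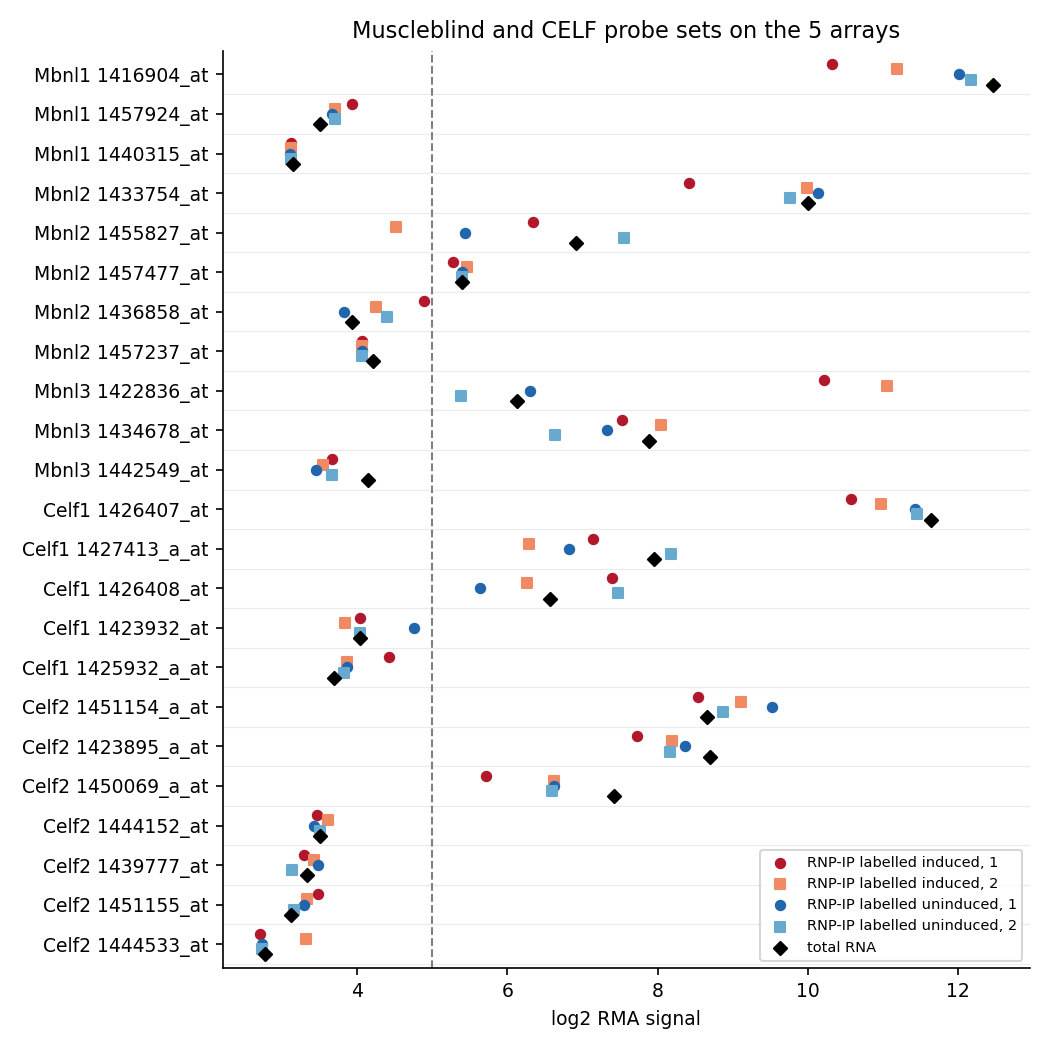
Log2 RMA signal (horizontal axis) of the 23 muscleblind and CELF probe sets (rows) on the 5 arrays (1 marker per array, with no averaging), with a dashed line at log2 5. The widest gap between the groups is that of Mbnl3 1422836_at, with 10.22 and 11.06 in the arrays labelled induced and 5.38 to 6.30 in the others, and 11 of the 23 rows lie wholly left of the line.

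Mbnl1, which promotes adult splicing patterns in muscle and is expressed in many tissues, ran the other way. Its bright probe set, 1416904_at, had 10.32 and 11.19 in the pair labelled induced, 12.01 and 12.17 in the pair labelled uninduced, and 12.47 in total RNA. Both arrays labelled induced were below all 3 controls, and RNP-IP 1 labelled induced was the lowest. The mean difference was -1.46 (SE 0.32) against the 3 controls, a signal 2.75-fold lower, and -1.33 against the uninduced RNP-IPs. This did not reach the 3-fold limit that counts as a call here. It was -1.89 and passed the limit once RNP-IP 2 labelled induced was left out, and -1.03 with the other of that pair left out. The other 2 Mbnl1 probe sets lay between 3.10 and 3.93 on all arrays.

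Mbnl2, the muscleblind gene with its strongest known splicing role in brain, had 1 bright probe set whose groups overlapped. Probe set 1433754_at had 8.41 and 9.99 in the pair labelled induced, 10.13 and 9.76 in the pair labelled uninduced, and 10.00 in total RNA. RNP-IP 1 labelled induced alone was low, and RNP-IP 2 labelled induced lay among the controls. The mean difference of -0.76 (SE 0.53) became 0.03 without RNP-IP 1 of the pair labelled induced and -1.55 without RNP-IP 2 of that pair. A dimmer Mbnl2 probe set, 1455827_at, was at 6.34 and 4.52 in the pair labelled induced, 5.44 and 7.56 in the pair labelled uninduced, and 6.91 in total RNA. Its replicates differed from each other by more than its group means, which were -1.21 apart. Mbnl2 1457477_at stayed between 5.28 and 5.47 on the 5 arrays, and the remaining 2 Mbnl2 probe sets lay between 3.82 and 4.90.

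Celf1, which acts in splicing and in deadenylation of GU-rich mRNAs, was lower in the arrays labelled induced by its bright probe set. Probe set 1426407_at had 10.58 and 10.98 in the pair labelled induced, 11.43 and 11.45 in the pair labelled uninduced, and 11.64 in total RNA. The groups did not overlap, and the mean difference was -0.73 (SE 0.16) on the log2 scale, a signal 1.66-fold lower. Celf1 1427413_a_at had 7.14 and 6.29 in the pair labelled induced against 6.82, 8.18 and 7.96 in the 2 uninduced RNP-IPs and total RNA. Celf1 1426408_at had 7.40 and 6.25 against 5.64, 7.47 and 6.57 in the same order. In both of these the groups overlapped, with mean differences of -0.94 and 0.27, so the 3 brighter Celf1 probe sets did not share a direction. The 2 dim Celf1 probe sets lay between 3.69 and 4.76.

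Celf2, a CELF protein of heart, brain and blood cells, was measurable by 3 of its 7 probe sets. Probe set 1451154_a_at had 8.54 and 9.11 in the pair labelled induced, 9.52 and 8.87 in the pair labelled uninduced, and 8.66 in total RNA. Its groups overlapped, with a mean difference of -0.20 (SE 0.35). Celf2 1423895_a_at ranged from 7.73 to 8.70 and Celf2 1450069_a_at from 5.71 to 7.42, with mean differences of -0.45 and -0.71 and overlapping groups. The 4 dim Celf2 probe sets lay between 2.70 and 3.61. Of these only 1451155_at had both arrays labelled induced, 3.48 and 3.33, above all controls, at a level where signal is close to background.

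Counted over all 23 probe sets, 2 had both arrays labelled induced above every control, 2 had both below, and 19 overlapped. Over the whole array 11% of probe sets had both above and 10.6% had both below. A call here means a change of at least 3-fold with an adjusted p under 0.5 in limma, the rule of the study. By it 1 of the 23 probe sets, Mbnl3 1422836_at, was called higher and 0 were called lower, against 1.16% called higher and 1.66% called lower of all probe sets. Against the uninduced RNP-IPs alone the counts were again 1 and 0, against 1.23% and 1.91%. At an adjusted p under 0.05 limma called 0% of all probe sets in either comparison on the deposited scale. Against the 3 controls it called 40 higher and 23 lower after median centring and 26 higher and 12 lower after cyclic loess. The median difference was -0.03 over the 23 probe sets and 0.005 over all probe sets, and 22 of the 23 (95.7%) lay within 3-fold, as did 96.8% of all. Since these differences were known when the genes were picked, the counts are a description.

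**Figure D2:**
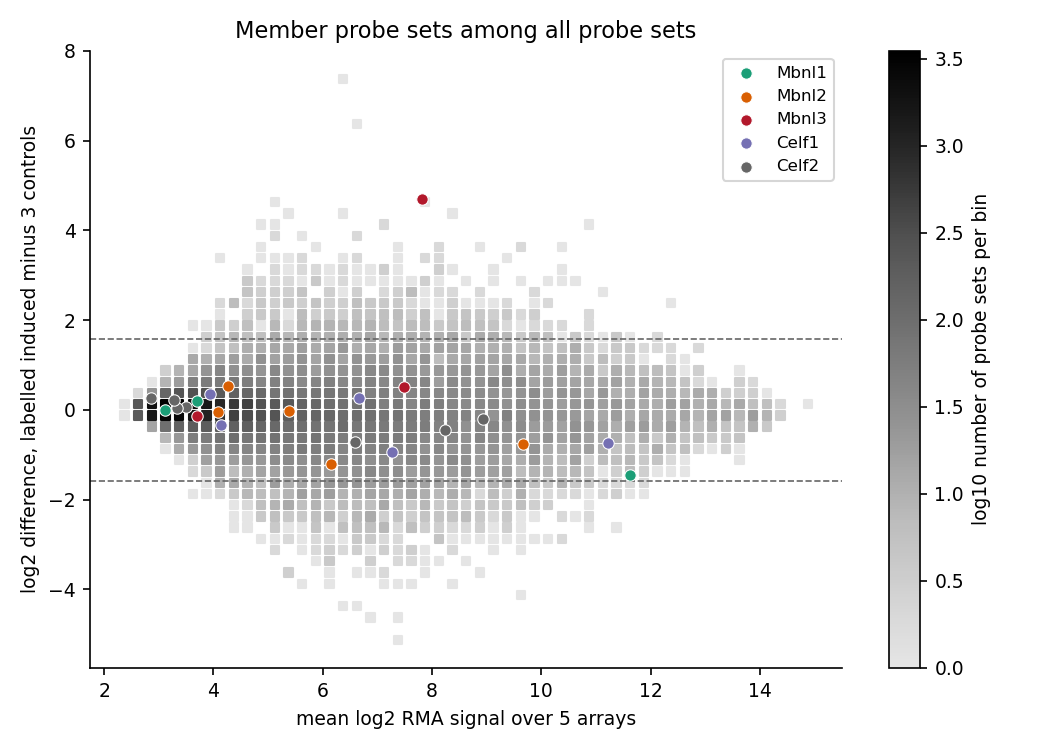
Log2 difference of the 2 arrays labelled induced minus the 3 controls (vertical axis) against the mean log2 RMA signal over the 5 arrays (horizontal axis), with all 45101 probe sets as grey bins shaded by log10 of their number, the 23 muscleblind and CELF probe sets as coloured points and dashed lines at 3-fold. Mbnl3 1422836_at lies at 4.70, apart from the other 22 points, which lie between -1.46 and 0.53 inside the dashed lines.

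The uninduced RNP-IPs were then compared with total RNA, to ask whether beads without induced AUF1 changed the recovery of these mRNAs. None of the 23 probe sets passed the 3-fold rule in limma in either direction, where 0.891% of all probe sets were called higher and 0.933% lower. At an adjusted p under 0.05, limma called 0% of all probe sets. At an unadjusted p under 0.05 there was 1 of the 23, the dim Mbnl3 1442549_at, against 10.9% of all probe sets. Differences over the 23 ran from -0.90 to 0.54 with a median of -0.04. The single total RNA array has no replicate and was assumed to vary like the RNP-IPs.

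For single genes this comparison had wide limits. Mbnl3 1422836_at differed by -0.29 between uninduced RNP-IPs and total RNA, with a 95% interval from -2.37 to 1.80 and a limma adjusted p of 0.990. The interval for Mbnl1 1416904_at ran from -1.85 to 1.10 around -0.38, with a limma adjusted p of 0.951. That of Mbnl2 1433754_at ran from -2.75 to 2.65 around -0.05, so a 3-fold difference either way lay inside it. The arrays labelled induced enter these intervals through the shared spread. For Mbnl2 1433754_at the SD of replicates was 1.11 in the pair labelled induced and 0.26 in the pair labelled uninduced. For Celf1 1426407_at the difference was -0.20, with an interval from -0.89 to 0.49 that lies inside 3-fold. Celf2 1451154_a_at differed by 0.54, from -0.91 to 1.99. Of the 12 probe sets that reached log2 5 on some array, 3 had intervals wholly inside 3-fold, which is 1.58 on the log2 scale.

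**Figure D3:**
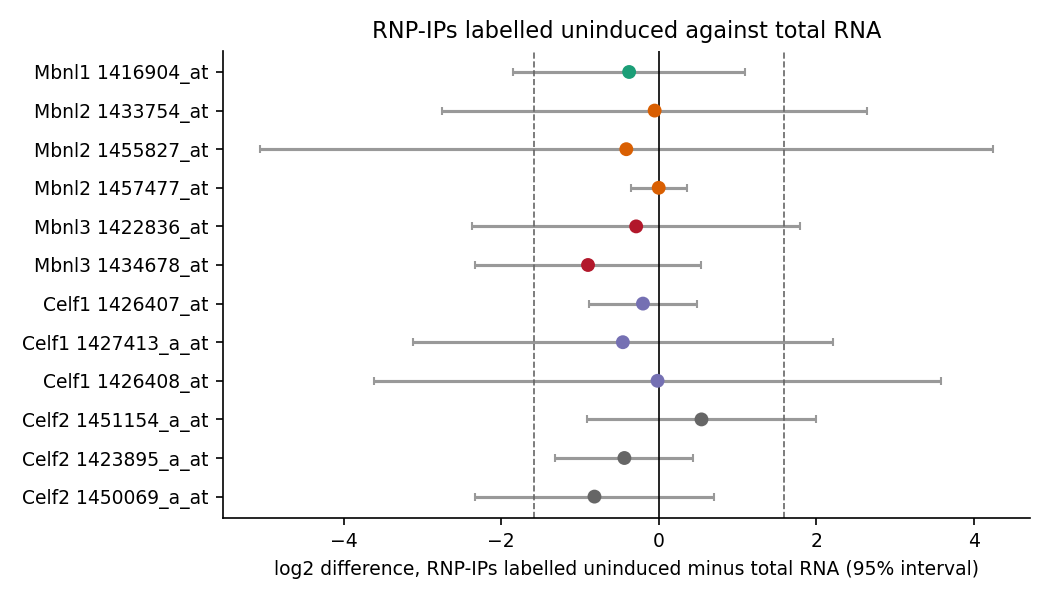
Log2 difference of the 2 uninduced RNP-IPs minus total RNA (horizontal axis) for the 12 muscleblind and CELF probe sets above background (rows), with points for the limma estimate, bars for its 95% interval and dashed lines at 3-fold. All 12 intervals cross 0, and only 3 of them stay inside the dashed lines.

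The arrays also differed in signal of the Gapdh and Actb control probe sets, and some muscleblind and CELF probe sets moved with it. The 5′ Gapdh control probe set had 8.18 and 4.24 in RNP-IPs 1 and 2 labelled induced, 3.65 and 7.81 in RNP-IPs 1 and 2 labelled uninduced, and 6.93 in total RNA. RNP-IP 2 labelled induced and RNP-IP 1 labelled uninduced were thus low, and the 5′ Actb control, at 7.17 and 5.83 there, was low in the same arrays against 8.50 to 11.35 elsewhere. The middle Gapdh control was also lower in them, at 7.21 and 5.59 against 10.36 to 10.64. So was the 3′ Gapdh control, at 9.71 and 9.70 against 11.90 to 12.32. The 3′ minus 5′ signal of Gapdh was 5.47 and 6.05 in them, 5.40 in total RNA, and 3.71 and 4.29 in the other RNP-IPs. For Actb it was 5.34 and 6.70, 5.24, and 2.46 and 3.59 in the same order. By this measure total RNA was close to RNP-IP 2 labelled induced. Whether the pattern belongs to the 5′ end or to lower signal along the transcript was not tested.

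Among the 23 probe sets, 4 had both of these arrays below the other 3, or 17.4% against 5.87% of all probe sets. They were Mbnl2 1455827_at, Celf1 1427413_a_at, Celf1 1426408_at and the dim Mbnl3 1442549_at. Within the 2 pairs of replicates, Mbnl2 1455827_at differed by -1.82 and -2.12 in the low 5′ array from its replicate, and Celf1 1426408_at by -1.14 and -1.83. Mbnl3 1422836_at did the opposite, with the low 5′ array higher by 0.84 and 0.92. Among others, Celf2 1451154_a_at (0.57 and 0.65), Mbnl3 1434678_at (0.51 and 0.68) and Mbnl2 1433754_at (1.58 and 0.37) did so too. Leaving out both arrays left the difference of Mbnl3 1422836_at at 4.47 and moved that of Mbnl1 1416904_at to -1.99, which then passed the 3-fold rule. The pattern was looked for after the values had been seen.

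**Figure D4:**
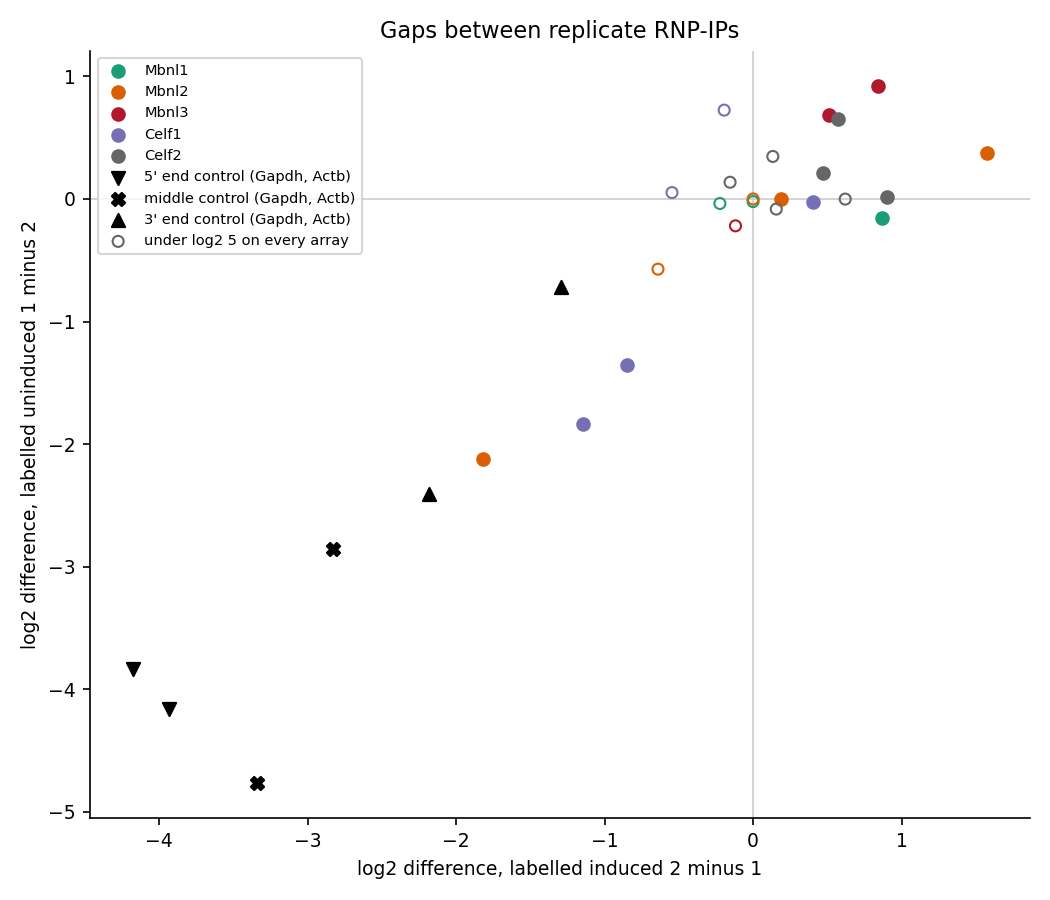
Log2 RMA signal of RNP-IP 2 minus RNP-IP 1 in the pair labelled induced (horizontal axis) and of RNP-IP 1 minus RNP-IP 2 in the pair labelled uninduced (vertical axis), so that both axes show the low 5′ array minus its replicate, for the 23 muscleblind and CELF probe sets and for the Gapdh and Actb control probe sets, each point being 1 probe set and open points those under log2 5 on every array. The 5′, middle and 3′ controls and, among others, Mbnl2 1455827_at and Celf1 1426408_at lie at the lower left, low in both of those arrays. Mbnl3 1422836_at, at 0.84 and 0.92, and other probe sets lie at the upper right.

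The probe sets of other genes with the most similar profiles were found by the root mean square difference over the 5 arrays after each probe set was centred on its own mean. For Mbnl3 1422836_at the nearest was Dck 1428838_a_at, for deoxycytidine kinase, with 8.87 and 9.07 in the arrays labelled induced and 4.19 to 4.85 in the others, at 0.27 log2 units. Next came Tnfsf11, the osteoclast differentiation factor RANKL, at 0.38, and the chaperonin subunit gene Cct4 at 0.43. For Mbnl1 1416904_at they were Ppp4r2, Ddr1 and Fcho2 at 0.08 to 0.10, and for Mbnl2 1433754_at Thoc1, Sgf29 and Pros1 at 0.09 to 0.12. For Celf1 1426407_at they were Bmt2, Mtmr3 and Vim at 0.05 to 0.06. The 5 arrays are the only points behind each likeness, and Celf2 1451154_a_at varied by less than 1 log2 unit and was not searched.

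Genes around these proteins were taken from 5 lists, 1 probe set a gene, the brightest. The lists were drawn up with earlier results of these data known. The adjusted p given for their genes therefore show only how the call rule was met and are no test. Over all 18194 genes, limma called 1.32% higher and 2.36% lower in the arrays labelled induced than in the 3 controls, with a median difference of 0.002. Among the 9902 probe sets with a mean log2 of at least 6, fitted alone, the shares were 3.94% and 6.57%. Of the 9 muscleblind and CELF genes, Mbnl3 was called higher and 0 were lower, with a median of -0.20. The remaining paralogs Celf3, Celf4, Celf5 and Celf6 had few or no signals above background. Celf5 was at 4.85 and 4.75 in the arrays labelled induced and 3.58 to 3.82 in the controls, and Celf4 at 3.98 and 4.26 against 4.75 to 5.47.

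Of 25 measured genes for other regulators of alternative splicing, 1 was called higher and 0 lower, with a median of 0.03, and 13 stayed under log2 5 on all arrays. The called gene was Ptbp2, the neural polypyrimidine tract binding protein. It had 9.63 and 9.98 in the arrays labelled induced, 7.62 and 7.72 in the uninduced RNP-IPs and 8.64 in total RNA, a difference of 1.81 (SE 0.39) with a limma adjusted p of 0.249. Qk, which encodes the quaking protein of the STAR family, differed by -1.05 and was not called.

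Of 10 genes for the myotonic dystrophy loci and partners of repeat RNA, 0 were called higher and 1 lower, with a median of -0.23. Gsk3b, a kinase that acts on Celf1 through cyclin D3 in this disease, had 8.10 and 8.60 in the arrays labelled induced, 10.72 and 10.47 in the uninduced RNP-IPs and 9.69 in total RNA. It fell by 1.94 (SE 0.39) with a limma adjusted p of 0.229, and Gsk3b 1434439_at and 1437001_at differed by -1.03 and -1.21 without being called, while 1451020_at differed by 0.43. Dmpk, whose CUG repeat expands in myotonic dystrophy type 1, was at 4.40 and 4.68 against 5.21 to 5.80 and was not called. Cnbp, the gene of the type 2 repeat, differed by 0.95 and was not called.

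Of 21 measured transcripts with exons known to be regulated by muscleblind or CELF proteins, 0 were called higher and 2 lower, with a median of -0.30. Insr, the insulin receptor, had 5.44 and 5.38 in the arrays labelled induced, 7.79 and 7.49 in the uninduced RNP-IPs and 6.73 in total RNA, and fell by 1.93 (SE 0.36) with a limma adjusted p of 0.211. Nfix, a transcription factor gene, was at 8.37 in both arrays labelled induced and at 9.55 to 10.59 in the controls, and fell by 1.70 (SE 0.34) with a limma adjusted p of 0.229. Tnnt2, cardiac troponin T, was at 3.70 and 3.71 in the arrays labelled induced, near background, and its difference of -2.39 was not called. These probe sets measure transcripts and not the inclusion of an exon. In the uninduced RNP-IPs against total RNA, 0 of the 21 were called higher and 2 lower, where 1.26% and 1.36% of all genes were. Tnnt2 was at 4.72 and 5.74 against 7.83, and Cd44, a hyaluronan receptor, at 6.59 and 7.65 against 9.63. Their differences were -2.60 and -2.51 with limma adjusted p of 0.335 and 0.380. Leaving out either RNP-IP of the pair labelled induced, which enters only through the shared spread, ended both calls. Another probe set of each gene was also called lower, Tnnt2 1418726_a_at (-2.67) and Cd44 1434376_at (-2.98). The remaining probe sets of these genes were under log2 5 on every array and were not called.

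Of 9 partners and targets of decay through GU-rich elements, 0 were called higher and 2 lower, with a median of -0.05. Parn, a deadenylase that works with Celf1, had 6.11 and 4.91 in the arrays labelled induced, 7.54 and 7.67 in the uninduced RNP-IPs and 6.76 in total RNA. It fell by 1.81 (SE 0.51) with a limma adjusted p of 0.342. Tnfrsf1b, a receptor for tumour necrosis factor, fell by 1.61 (SE 0.45) with a limma adjusted p of 0.340. Cdkn1a, the cell cycle inhibitor p21, was at 10.67 and 9.59 in the arrays labelled induced and at 8.17, 9.60 and 7.63 in the 2 uninduced RNP-IPs and total RNA, so its groups overlapped, and its difference of 1.66 was not called. Jun, an AP-1 transcription factor gene, was called lower in the uninduced RNP-IPs than in total RNA, at 5.93 and 6.24 against 8.19, a difference of -2.11 (SE 0.18) with a limma adjusted p of 0.183.

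The calls of the listed genes other than Mbnl3 rested on few arrays and, against the 3 controls, on 1 probe set a gene. Ptbp2 1423471_at (0.83), Nfix 1436364_x_at (-1.44) and 1423493_a_at (-0.55) and Parn 1425422_a_at (-0.32) were not called. Tnfrsf1b 1448951_at (0.12) and the remaining Insr and Nfix probe sets were under log2 5 on every array and were not called. The same held for Jun 1417409_at in the uninduced RNP-IPs against total RNA. Without RNP-IP 2 labelled uninduced, Ptbp2 (1.67), Gsk3b (-1.85), Insr (-1.85), Nfix (-1.43), Parn (-1.64) and Tnfrsf1b (-1.75) each lost its call. Parn also lost it without RNP-IP 2 labelled induced (-1.21) or RNP-IP 1 labelled uninduced (-1.70). Tnfrsf1b also lost it without RNP-IP 1 labelled induced (-1.81), RNP-IP 2 labelled induced (-1.40) or total RNA (-1.23).

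**Figure D5:**
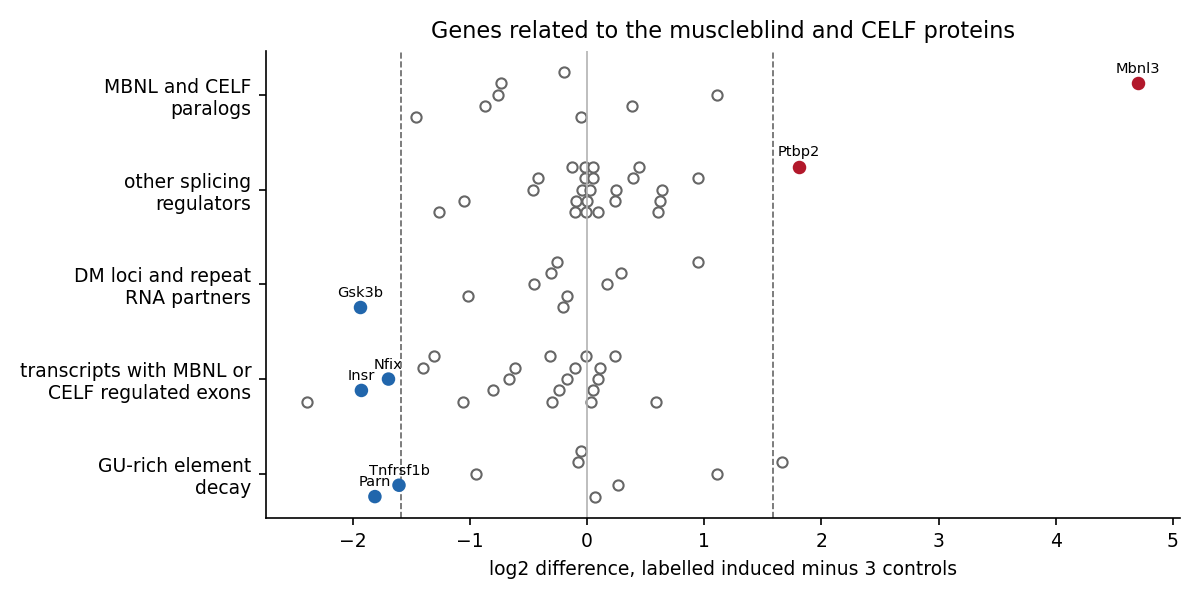
Log2 difference of the 2 arrays labelled induced minus the 3 controls (horizontal axis) for the measured genes of the 5 lists (rows, where DM is myotonic dystrophy and height within a row has no meaning), 1 point per gene from its brightest probe set, with called genes filled and named, other genes open and dashed lines at 3-fold. Mbnl3 at 4.70 and Ptbp2 at 1.81 lie right of the lines, and Gsk3b, Insr, Nfix, Parn and Tnfrsf1b lie left of them, between -1.94 and -1.61. The open points beyond the lines are Tnnt2 at -2.39 and Cdkn1a at 1.66.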

How the data were processed

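The 5 Affymetrix Mouse 430 2.0 arrays were deposited as log2 values, which the authors had made from 50 ng of RNA by 2-cycle labelling and RMA normalization of each array's scanned signals; the sources used here give no RMA version. Array medians ran from 3.77 to 3.83, and 9427 to 10289 probe sets lay above log2 6. The number of arrays limits the precision, and none was left out. The array annotation gave 34958 of 45101 probe sets a single gene, 932 more than 1 and 9211 no gene. The annotation names no genome build that was used here, and no coordinates are given.

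All probe sets were fitted by the lmFit and eBayes functions of limma 3.58.1 (R 4.3.3) with Benjamini-Hochberg adjustment over all of them. The first fit took induced against the 2 uninduced RNP-IPs and total RNA as 2 groups, with 3 residual degrees of freedom. The second took 3 groups, with 2. A call needed 3-fold and an adjusted p under 0.5. Groups came from the sample titles, and the replicates were described as independent RNP-IPs of 1 infected cell population. The leading probe set of a gene had the highest mean over the 5 arrays. Probe sets under log2 5 were read as near background. In each list the called genes and some of those with the largest differences were named. The genes and lists were chosen with earlier results of these data known.

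On simulated data of 45101 probe sets for the first comparison, 93 of 100 changed 4-fold and 99 of 100 changed 16-fold were called, with 14 unchanged probe sets called. The changed probe sets were drawn at random, and 29342 of the 45101 were under log2 5 on every array. Simulated noise was independent between arrays and probe sets. The shares called therefore do not apply to the brighter muscleblind and CELF probe sets. Alternatives were median centring, cyclic loess, a filter at a mean log2 of 6, an adjusted p under 0.05, leaving out each array, a replicate block, and uninduced RNP-IPs alone as controls. A crossed block and leaving out both arrays of low 5′ signal were added after seeing the data. Python 3.11.15 made the tables.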

Additional observations from a re-analysis of the deposited data

How the results depend on the processing

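The difference of Mbnl3 1422836_at from the 3 controls, one of the values known when the genes were chosen, ran from 4.28 to 5.12 over 12 alternatives. Its adjusted p lay just under the limit of 0.5 with the replicate block, and it passed the filter on dim probe sets through the arrays labelled induced, since its mean in the controls was 5.93. A call of it at an adjusted p under 0.05 with that filter would therefore be no test, and none is given. With all probe sets fitted, 0 member probe sets were called higher at that limit in either induced comparison. In each, the count called lower ran from 0 to 1 over the leave-one-out fits, with 1 (Mbnl1 1416904_at) without RNP-IP 2 labelled induced, and against the 3 controls it was also 1 without both arrays of low 5′ signal. Without RNP-IP 2 labelled uninduced, the difference between uninduced RNP-IPs and total RNA turned to 0.14 for Mbnl2 1433754_at and 0.18 for Mbnl3 1422836_at, the upper ends of ranges whose lower ends, without RNP-IP 1 of that pair, were -0.24 and -0.75. The gene difference of Mbnl3 was 2.61 as the mean of its 2 probe sets above background. The dim 1442549_at, at -0.14, was left out of that mean.

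Same-numbered RNP-IPs deviated in opposite directions (correlation -0.50), so the numbers were not taken as pairs. With the replicate block the member calls were 1 higher and 0 lower, and over all probe sets 286 higher and 368 lower, against 523 and 749. Nfix (-1.70), Parn (-2.10) and Tnfrsf1b (-1.23) lost their calls under it. With the crossed block 647 were higher and 968 lower. Against the 3 controls, 408 were lower when RNP-IP 1 labelled induced was left out and 383 when RNP-IP 2 labelled uninduced was, and in uninduced RNP-IPs against total RNA the count was 1013 without RNP-IP 2 labelled uninduced, against 421. Without both arrays of low 5′ signal, Insr (-1.67), Ptbp2 (1.44), Parn (-1.10) and Tnfrsf1b (-1.63) lost their calls, and Tnfrsf1b also under cyclic loess (-1.53) and with uninduced RNP-IPs alone as controls (-1.23). The filter on dim probe sets left 9902, with 131 higher and 178 lower at an adjusted p under 0.05, against 0 and 0 of all probe sets on the deposited scale, 40 and 23 after median centring and 26 and 12 after cyclic loess. With 2 arrays a group, single arrays could decide a call, and probe sets under log2 5 have little signal over background.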
